A study of Rattus norvegicus with 8 samples.

Results

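The genes described here are 33 listed genes of the vessel wall: markers of endothelial cells together with ligands and receptors of the vascular endothelial growth factor (VEGF) and angiopoietin systems. They were taken from the list by name, whatever their values, and 30 of the 33 had a probe set annotated to them alone, among 14506 genes measured. Vwf, Ptprb and Mmrn2 were not analysed here. Each of the 30 genes had 1 such probe set.

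The samples were pancreatic islets of fetal Sprague-Dawley rats, with 4 IUGR litters (intrauterine growth restriction, by surgery on the dam at embryonic day 18) and 4 sham litters (a control operation on the same day). No genetic change is named in the labels, and both groups share the operation day, the strain and the collection at embryonic day 19. Islets of a whole litter were pooled on 1 array, so the litter is the replicate, fetuses within a litter cannot be told apart, and the interval from surgery was 1 day. The labels name no sorting of cells, so vessels, islet cells and any attached tissue were measured together, and fewer cells of a type cannot be told apart from less RNA per cell.

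Endothelial cells line blood vessels, and islets are among the most densely vascularised parts of the pancreas. Endocrine cells secrete VEGF-A, which acts on endothelial cells through Kdr (VEGF receptor-2), while Flt1 (VEGF receptor-1) binds the same ligand with high affinity and low signalling and so limits it. Angiopoietin-1 activates the receptor Tek (Tie2) and steadies vessels, angiopoietin-2 opposes it in many settings, and Tie1 is the partner receptor. Low oxygen is a known inducer of Vegfa.

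The promoters of the measured members that followed the other endothelial members most closely from litter to litter, and for which a promoter was at hand, are those of Tie1, Eng and Kdr. The 250 bases before the gene start are shown for each, 5′ to 3′ on the gene's strand, from RefSeq on GRCr8. Capitals mark AGGAAG or its reverse CTTCCT, letters that ETS transcription factors such as Erg can bind. Tie1 lies at chr5:137304982-137305231 on the minus strand, Eng at chr3:36332029-36332278 on the plus strand and Kdr at chr14:32571813-32572062 on the plus strand.
Tie1: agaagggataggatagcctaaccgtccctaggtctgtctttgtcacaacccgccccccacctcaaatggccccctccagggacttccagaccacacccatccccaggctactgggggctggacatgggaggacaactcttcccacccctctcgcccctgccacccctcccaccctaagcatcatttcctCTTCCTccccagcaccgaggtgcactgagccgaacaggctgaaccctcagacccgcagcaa
Eng: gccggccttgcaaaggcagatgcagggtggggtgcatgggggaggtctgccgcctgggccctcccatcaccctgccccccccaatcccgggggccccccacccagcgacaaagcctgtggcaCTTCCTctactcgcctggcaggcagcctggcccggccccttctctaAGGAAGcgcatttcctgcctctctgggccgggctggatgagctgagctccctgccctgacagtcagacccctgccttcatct
Kdr: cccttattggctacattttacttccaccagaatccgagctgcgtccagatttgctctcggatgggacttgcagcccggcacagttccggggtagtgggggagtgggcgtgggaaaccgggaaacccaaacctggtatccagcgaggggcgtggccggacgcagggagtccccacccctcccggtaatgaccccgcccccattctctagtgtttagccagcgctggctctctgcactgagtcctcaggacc

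In these windows AGGAAG, read on either strand, occurred once upstream of Tie1, 61 bases before the start, and at 82 and 128 bases before the start of Eng. Kdr had none in its window. Promoters, here 250 bases before to 50 after the start, were matched for 20 of the 30 members. AGGAAG was found in 12 of the 20, and in 34.4% of 11968 promoters of measured genes. The 12 were Flt1, Flt4, Tie1, Emcn, Eng, Plvap, Egfl7, Erg, Robo4, Nos3, S1pr1 and Lyve1. They were 12 of the 17 members with a promoter that are not ligands, and 0 of the 3 that are (Vegfa, Vegfb and Vegfc). The shorter GGAAG, which AGGAAG contains, was in 15 of 20 and in 71.9% of all promoters, CAGGAAG in 6 and 12.8%, and CCGGAAG in 0 and 13.1%. ACGTG, a form of the core that hypoxia-inducible factors bind, was in 3 of 20 (Robo4, Cd34 and Clec14a) and in 22.8% of all promoters. It was not in the windows at the annotated starts of Vegfa. These motifs were picked after several short motifs had been counted, and a match describes letters only.

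No member passed the threshold between IUGR and sham islets. Of the 30 genes, 29 were lower in IUGR islets and 1 was higher, with a median difference of -0.16 on the log2 scale and a range from -0.53 to 0.15. Over all 14506 genes the median was 0.04, with 7989 higher and 6517 lower (44.9% lower). The test was limma's, two-sided, with Benjamini-Hochberg adjusted p-values over every gene and a threshold of 0.05. It called 0 members, against 0.248% of all genes. At an unadjusted p under 0.05, 2 members were lower and 0 higher, against 10.7% and 15.4% of all genes. The count of lower members at that cutoff depended on the scaling. It was 7 after quantile normalization (12.3% of all genes) and 14 after median centring (30.6%). With the replicate number as a block it was 0 (6.77%), and with array weights 2 (21.2%). In no member did the 4 IUGR litters stand clear of the 4 sham litters, while 5.45% of all genes were lower without overlap and 10.0% higher without overlap.

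The direction was weaker without either of 2 litters and turned without both. It also turned with array weights, where 12 members were lower and 18 higher. After quantile normalization 29 were lower, and after median centring 30. Of all genes, 41.7% were lower with array weights, 50.6% after quantile normalization and 71.9% after median centring. Without IUGR replicate 4, 19 members were lower and 11 higher (median -0.04). Without sham replicate 4, 18 were lower and 12 higher (median -0.07). With both left out, a choice made after the values were seen, 11 were lower and 19 higher, and the median was 0.07. IUGR replicate 4 was the lowest litter in 22 members and sham replicate 4 the highest in 20. Leaving them out therefore raises IUGR minus sham in those members by construction. Of all genes, 43.8% were lower without IUGR replicate 4, 48% without sham replicate 4 and 47.5% without both. Leaving out any other litter kept 25 to 29 members lower, and 42.3% to 46.3% of all genes.

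**Figure D1:**
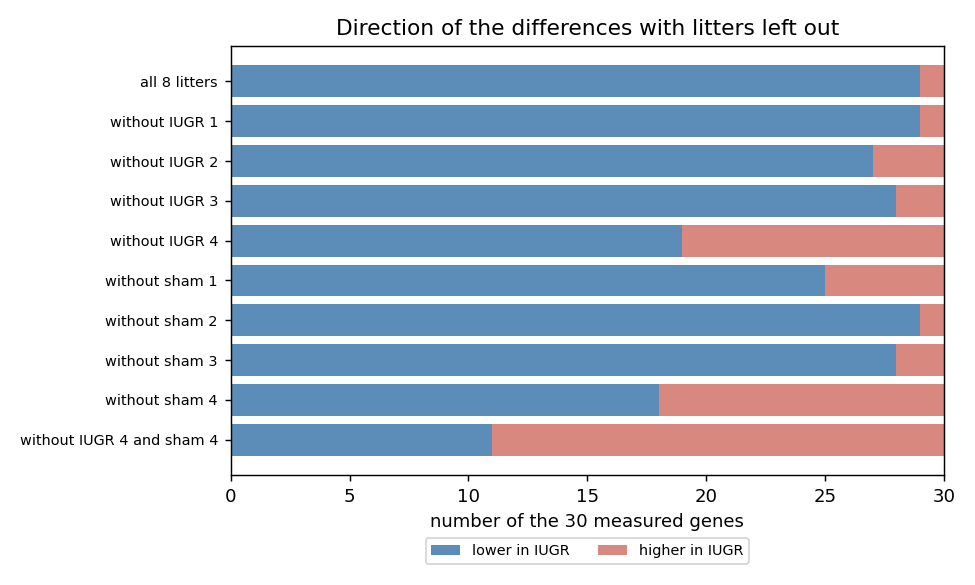
Number of the 30 measured genes that were lower (blue) or higher (red) in IUGR than in sham litters, on all 8 litters and with litters left out. With all litters 29 were lower, and with IUGR replicate 4 and sham replicate 4 both left out 11 were.

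Values below are log2 expression, in the order of replicates 1 to 4. VEGF-A is the main endothelial growth factor that endocrine cells release. Vegfa was at 11.87, 11.58, 12.11 and 11.50 in the IUGR litters, and at 11.92, 11.68, 11.58 and 11.93 in the sham litters. The groups lay over each other, with the highest and the lowest value both in IUGR litters. Vegfa differed by -0.01 ± 0.15 (SE, n = 4 litters per group), with a 95% interval from -0.37 to 0.34 (limma adjusted p = 0.960). Of 17 genes of oxygen sensing and hypoxia response on the same arrays, 16 were higher, 0 of them past the threshold, with a median of 0.39. Among them Pdk1, a kinase that slows pyruvate oxidation, differed by 0.95 and Ero1a, an endoplasmic reticulum oxidase, by 0.53 (adjusted p = 0.072 and 0.073), and the transcription factor genes Hif1a and Epas1 by 0.12 and 0.04.

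Vegfb encodes a ligand of Flt1 and was the single member with a positive difference, which was below 0 after median centring. It was at 11.70, 11.69, 11.46 and 11.78 in IUGR litters, and at 11.63, 11.59, 11.50 and 11.30 in sham litters, and differed by 0.15 ± 0.11 (SE; adjusted p = 0.374). Its lowest value was that of sham replicate 4, in which most other members were highest. Vegfc, the ligand of Flt4 that drives lymphatic growth, was at 9.38, 9.69, 9.42 and 9.32 in IUGR litters and at 9.89, 9.72, 9.57 and 9.40 in sham litters. The IUGR values of Vegfc ran from just below the sham range up into it, and the difference was -0.19 ± 0.13 (SE; adjusted p = 0.360).

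Among the angiopoietins, Angpt2 is made largely by endothelial cells and Angpt1 by the cells around vessels. Angpt2 was at 8.76, 8.69, 8.75 and 8.13 in IUGR litters, against 9.18, 8.64, 8.87 and 8.80 in sham litters, a difference of -0.29 ± 0.17 (SE; adjusted p = 0.308). IUGR replicate 4 was the lowest of the 8, and each of the other IUGR litters lay above sham replicate 2 and below the other sham litters. Without IUGR replicate 4 the difference in Angpt2 was -0.14. Angpt1 was at 7.84, 7.71, 7.46 and 7.63 in IUGR litters, against 8.12, 7.38, 7.74 and 7.90 in sham litters, with overlapping groups. It differed by -0.12 ± 0.16 (SE; adjusted p = 0.636).

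**Figure D2:**
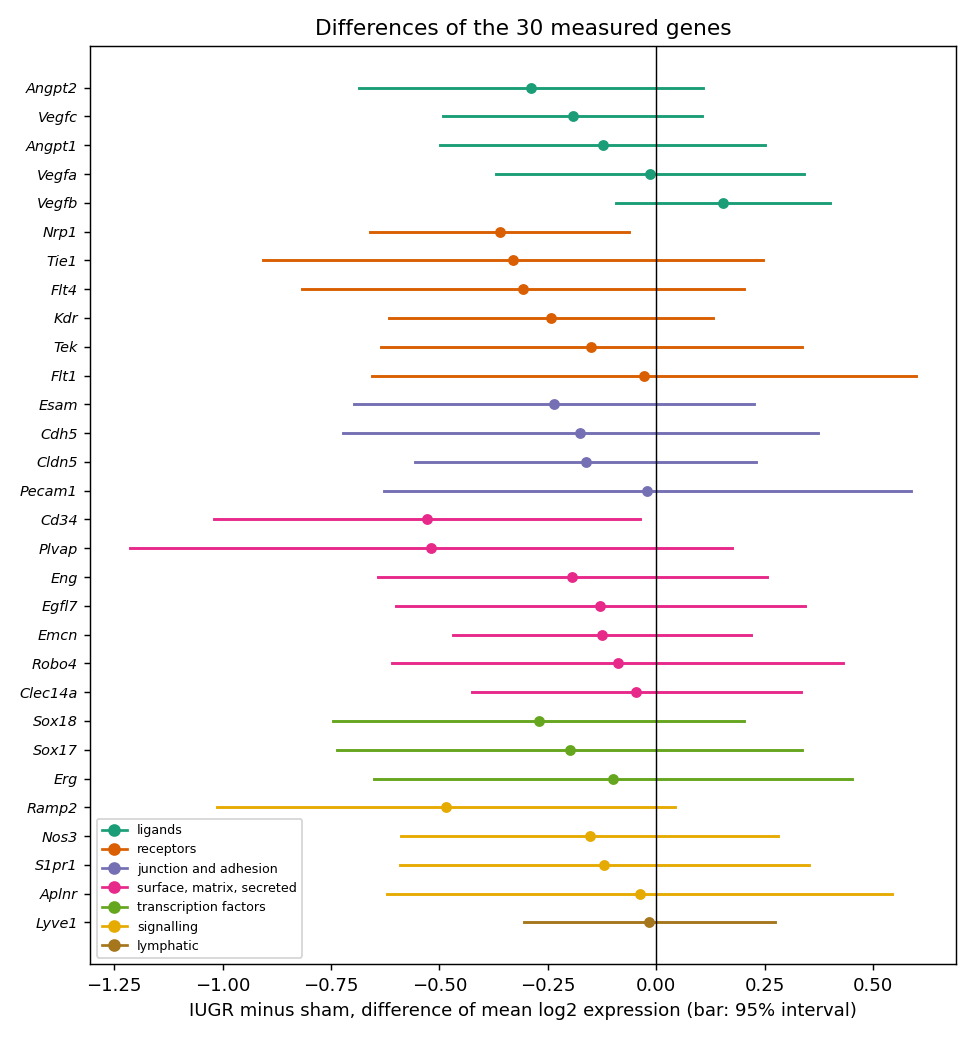
Difference of mean log2 expression, IUGR minus sham, for the 30 measured genes, grouped by role, with the 95% interval of the limma fit. Vegfb is the 1 gene right of 0, and only the intervals of Nrp1 and Cd34 leave out 0, neither past the threshold after adjustment over all genes.

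Of the receptors, Nrp1 had the smallest p. Neuropilin-1 is a co-receptor that presents VEGF-A to Kdr, and it is also found on neurons and mesenchyme. Nrp1 was at 11.20, 11.30, 11.04 and 10.91 in IUGR litters and at 11.53, 11.22, 11.46 and 11.70 in sham litters. Only IUGR replicate 2 reached into the sham range, above sham replicate 2. The difference was -0.36 ± 0.13 (SE), with an unadjusted p of 0.023 and an adjusted p of 0.146, and it lay between -0.45 and -0.29 when 1 litter was left out.

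The signalling receptor Kdr was at 11.27, 11.22, 11.28 and 10.75 in IUGR litters and at 11.49, 11.09, 11.27 and 11.64 in sham litters. The first 3 IUGR litters were close to one another and inside the sham range, and IUGR replicate 4 was below every other litter. Kdr differed by -0.24 ± 0.16 (SE; adjusted p = 0.358), and by -0.12 without IUGR replicate 4. Flt1 was at 10.35, 10.03, 10.37 and 9.77 in IUGR litters and at 10.26, 9.64, 9.85 and 10.89 in sham litters, and differed by -0.03 ± 0.27 (SE; adjusted p = 0.956), its sham litters spreading from the lowest to the highest value of all.

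Flt4, the VEGF-C receptor of lymphatic and sprouting endothelium, was at 9.04, 8.98, 8.99 and 8.65 in IUGR litters and at 9.32, 8.74, 9.02 and 9.82 in sham litters, a difference of -0.31 ± 0.22 (SE; adjusted p = 0.390). Tek was at 10.77, 10.92, 10.89 and 10.15 in IUGR litters and at 11.26, 10.55, 10.69 and 10.84 in sham litters, and differed by -0.15 ± 0.21 (SE; adjusted p = 0.659). Its partner Tie1 was at 10.61, 10.57, 10.63 and 9.94 in IUGR litters and at 10.92, 10.36, 10.44 and 11.35 in sham litters, a difference of -0.33 ± 0.25 (SE; adjusted p = 0.413). In all 3 of these receptors IUGR replicate 4 was the lowest of the 8 litters. Without it the difference was -0.22 in Flt4, 0.03 in Tek and -0.16 in Tie1. Without sham replicate 4 it was -0.11 in Flt4 and -0.14 in Tie1, and without sham replicate 1 it was -0.01 in Tek.

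Junction genes seal and join endothelial cells. Esam, an adhesion molecule of tight junctions, was at 11.57, 11.44, 11.50 and 10.75 in IUGR litters and at 11.88, 11.36, 11.53 and 11.43 in sham litters, and differed by -0.23 ± 0.20 (SE; adjusted p = 0.464), and by -0.05 without IUGR replicate 4 and -0.12 without sham replicate 1. Pecam1 (CD31), also present on platelets and leukocytes, was at 11.60, 11.31, 11.38 and 10.83 in IUGR litters and at 11.33, 10.83, 11.05 and 11.99 in sham litters. The lowest Pecam1 value was 10.83 in both groups, and sham replicate 4 lay above every IUGR litter. The difference was -0.02 ± 0.27 (SE, adjusted p = 0.965). Cdh5 (VE-cadherin) differed by -0.17 ± 0.24 (0.07 without sham replicate 4) and the tight junction claudin gene Cldn5 by -0.16 ± 0.17 (SE).

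Cd34, a sialomucin of endothelial and blood progenitor cells, had the largest difference of the 30. It was at 11.68, 11.87, 11.31 and 11.20 in IUGR litters, and at 11.88, 11.82, 11.89 and 12.58 in sham litters. Sham replicate 4 stood above all others, and the other 3 sham litters overlapped IUGR replicate 2. The difference was -0.53 ± 0.21 (SE), with an unadjusted p of 0.038 and an adjusted p of 0.171, and it was -0.35 without sham replicate 4. Plvap, which forms the diaphragms of fenestrated capillaries such as those of islets, was at 10.78, 11.36, 11.65 and 10.23 in IUGR litters and at 11.73, 11.35, 11.21 and 11.80 in sham litters. It spread most within the IUGR group, and the difference of -0.52 ± 0.30 (SE; adjusted p = 0.296) was -0.26 without IUGR replicate 4.

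The remaining surface and secreted markers lay closer to 0. Clec14a, an endothelial lectin, was at 9.43, 9.52, 9.44 and 9.07 in IUGR litters and at 9.71, 9.14, 9.18 and 9.61 in sham litters, and differed by -0.05 ± 0.17 (SE; adjusted p = 0.874). The TGF-beta co-receptor gene Eng differed by -0.19, the secreted factor gene Egfl7 by -0.13, the sialomucin gene Emcn by -0.12 and the guidance receptor gene Robo4 by -0.09 (adjusted p from 0.534 to 0.818).

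Sox18 and Sox17 are transcription factors of early and arterial endothelium, and Erg maintains endothelial identity. Sox18 was at 9.65, 9.50, 9.61 and 8.99 in IUGR litters and at 9.93, 9.33, 9.52 and 10.05 in sham litters, a difference of -0.27 ± 0.21 (SE; adjusted p = 0.415). Erg was at 9.53, 9.70, 9.76 and 8.95 in IUGR litters and at 9.99, 9.17, 9.34 and 9.84 in sham litters, and differed by -0.10 ± 0.24 (SE; adjusted p = 0.807). Sox17 differed by -0.20 ± 0.23 (SE). Each of the 3 had its lowest value in IUGR replicate 4 and overlapping groups otherwise. Without that litter the difference was -0.12 in Sox18, -0.04 in Sox17 and 0.08 in Erg. Without sham replicate 4 it was -0.16 in Sox18 and -0.08 in Sox17, and without sham replicate 1 it was 0.04 in Erg.

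Ramp2 encodes the partner protein that makes calcitonin-receptor-like receptor respond to adrenomedullin, a peptide that vessels need to form. It was at 11.24, 11.41, 11.41 and 10.54 in IUGR litters and at 11.70, 11.29, 11.53 and 12.02 in sham litters, a difference of -0.49 ± 0.23 (SE; adjusted p = 0.218). Without IUGR replicate 4 it was -0.28. Aplnr, the apelin receptor, was at 10.77, 10.73, 10.57 and 10.06 in IUGR litters and at 10.61, 9.99, 10.54 and 11.15 in sham litters, and differed by -0.04 ± 0.25 (SE; adjusted p = 0.935). Nos3, the endothelial nitric oxide synthase gene, differed by -0.15 and S1pr1, a receptor for sphingosine 1-phosphate, by -0.12.

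Lyve1 marks lymphatic endothelium, liver sinusoids and some fetal macrophages. It was at 12.40, 12.36, 11.99 and 11.97 in IUGR litters and at 12.22, 12.05, 12.28 and 12.25 in sham litters. The IUGR litters lay on both sides of the sham litters, and the difference was -0.02 ± 0.13 (SE; adjusted p = 0.945).

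The members moved together from litter to litter more visibly than between the groups. IUGR replicate 4 was the lowest of the 8 litters in 22 members and sham replicate 2 in 7. Over all genes IUGR replicate 4 was lowest in 12.6% and sham replicate 2 in 13.8%. Sham replicate 4 was highest of the 8 in 20 members and sham replicate 1 in 7. Over all genes sham replicate 4 was highest in 19.9% and lowest in 30.8%, and sham replicate 1 was highest in 18.9%. The mean of the 30 members was 10.46, 10.45, 10.45 and 9.98 in IUGR replicates 1 to 4, and 10.66, 10.21, 10.36 and 10.83 in sham replicates 1 to 4. Group means were 10.33 ± 0.24 and 10.52 ± 0.28 (SD, n = 4 each, IUGR and sham). Only IUGR replicate 4 stood apart from its group, and the sham litters lay on both sides of the other 3.

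**Figure D3:**
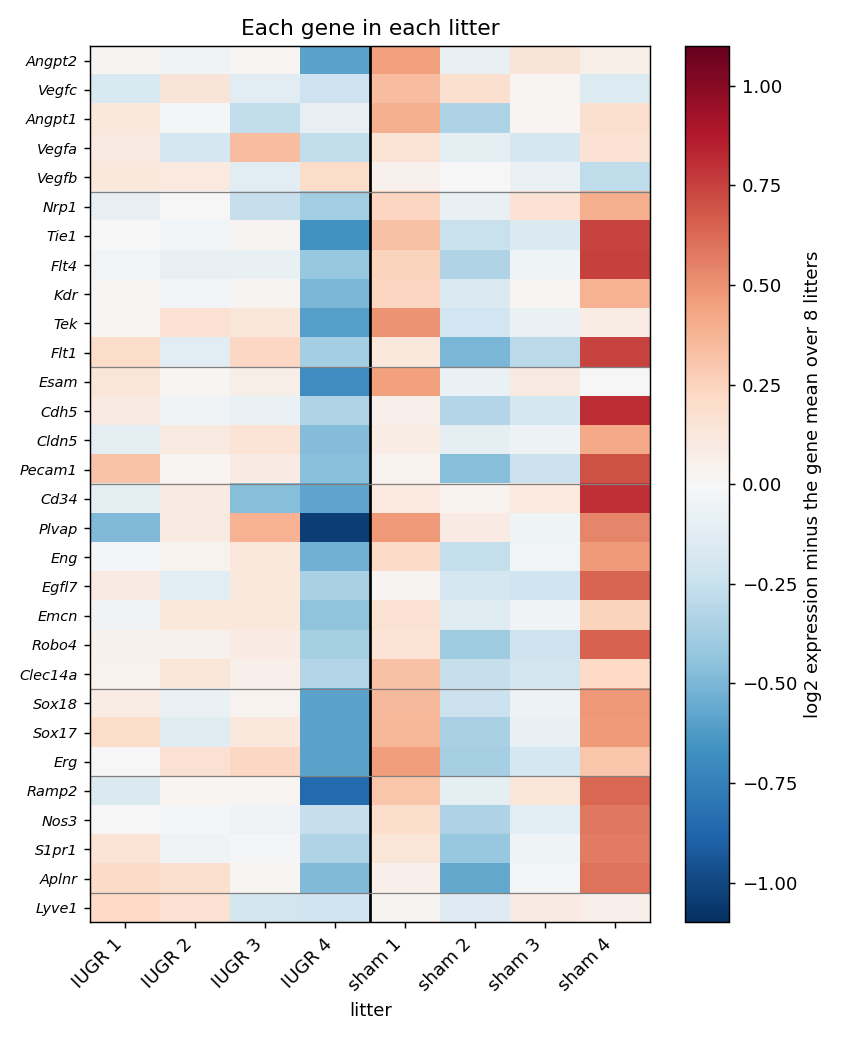
Log2 expression of each gene minus its mean over the 8 litters, with IUGR litters left of the line and sham litters right of it, and genes ordered by role. The column of IUGR replicate 4 is the lowest in 22 genes and that of sham replicate 4 the highest in 20, and Vegfb runs against both.

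After each gene's group means were taken off, the members were set against the mean of the other members that are not ligands, over 8 litters. These correlations share arrays and are a description. They are not set beside those of all genes, so they cannot show whether other genes moved as closely. They were 0.99 for Tie1, 0.99 for Eng, 0.98 for Kdr and 0.98 for Sox18, and above 0.85 in 20 of the 25 members that are not ligands. The exceptions were Cd34 (0.74), Tek (0.76), Plvap (0.72), Esam (0.62) and Lyve1 (0.51). Of the ligands, Vegfa (0.70) and Angpt2 (0.69) had the highest values, Angpt1 was at 0.56, Vegfc at -0.04 and Vegfb at -0.63.

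Means of other cell lists also stood apart on these 2 litters. In IUGR replicate 4 the mean of 15 mural cell genes (pericytes and smooth muscle) was 9.43, against 10.31 to 10.66 in the other IUGR litters, and that of 19 mesenchyme genes was 10.05, against 10.73 to 11.02. The mean of 19 liver genes was 12.80 there, against 11.32 to 12.32, and that of 20 acinar genes 11.62, against 10.64 to 11.09. In sham replicate 4 the liver mean was 9.0, against 9.54 to 11.48 in the other sham litters, the acinar mean 9.12, against up to 10.53, and the mesenchyme mean 11.45, against 10.97 to 11.15. Platelet genes were at 9.49 in IUGR replicate 4, against 8.38 to 8.64 in the other IUGR litters. Macrophage and erythroid means were lowest of all litters in IUGR replicate 1 (8.96 and 10.27), and next lowest in IUGR replicate 4 (9.17 and 10.81). The part of these cells in the members' values was not tested.

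**Figure D4:**
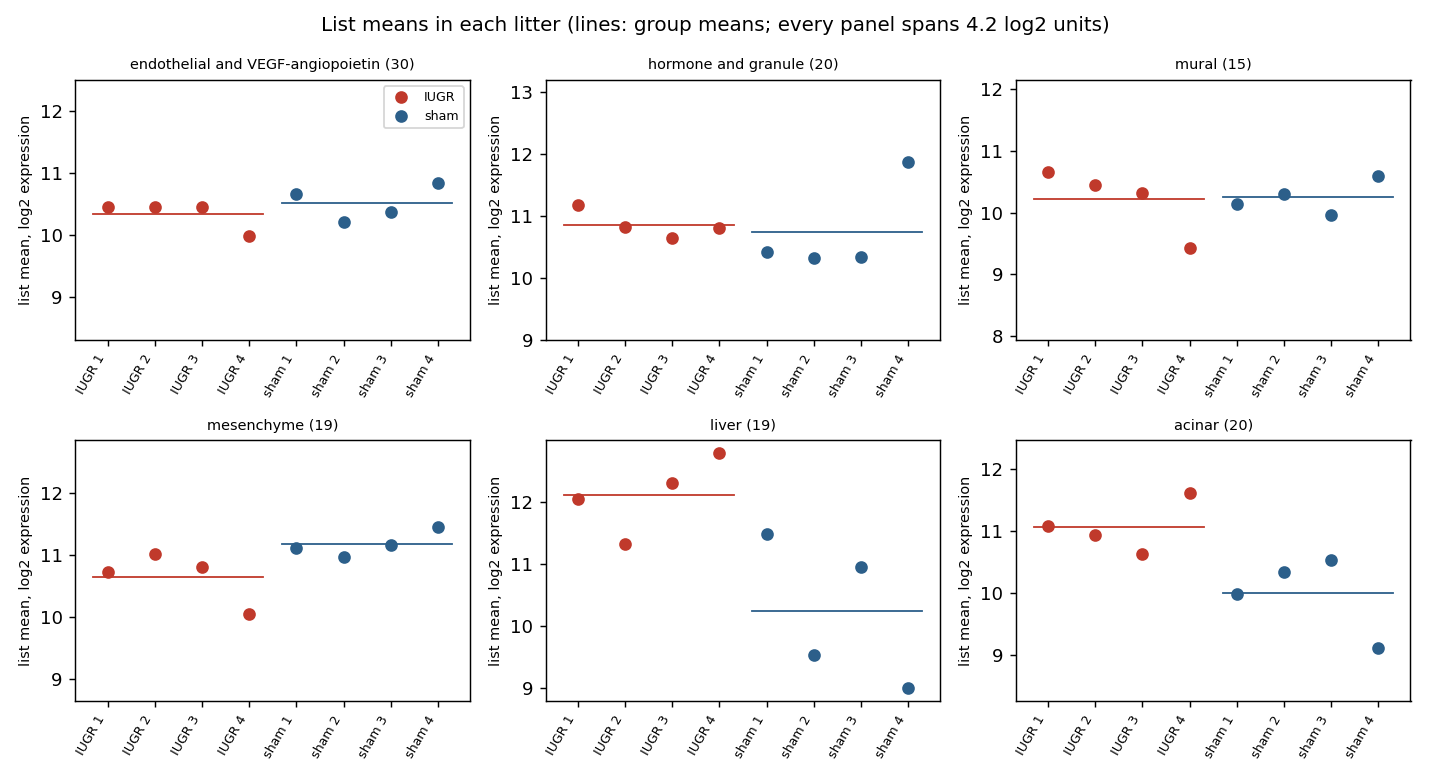
Mean log2 expression of 6 gene lists in each litter, IUGR litters in red left of sham litters in blue, with lines at the group means. The endothelial, mural and mesenchyme means are lowest in IUGR replicate 4, where the liver mean is highest (12.80), and the hormone mean is highest in sham replicate 4 (11.87).

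The relation of vessel genes to islet hormone genes was taken from the mean of 20 hormone and granule genes. That mean was 11.17, 10.82, 10.64 and 10.81 in IUGR replicates 1 to 4, and 10.42, 10.32, 10.34 and 11.87 in sham replicates 1 to 4. Sham replicate 4 had the highest hormone mean and the highest member mean (10.83), but IUGR replicate 1, next in hormone genes, had a member mean of 10.46 that was close to IUGR replicates 2 and 3. Ins1, Ins2 and Gcg were at 13.15 to 14.24 on every array, near its highest value, where differences can be compressed.

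Across the litters, 26 of the 30 members had upward slopes on the hormone mean and 4 had downward ones, in a limma fit with group as a second term. The median slope was 0.28 log2 units per unit of the hormone mean, and -0.02 over all genes, of which 45.3% had upward slopes. Upward slopes were not particular to the members. The median slope was 0.48 in 19 mesenchyme genes, 0.43 in 15 mural genes and 0.37 in 13 Notch genes. It was 0.16 to 0.26 in the duct, lymphatic, other endothelial and other VEGF and angiopoietin lists. In the liver, acinar, erythroid, platelet, macrophage, liver sinusoid and hypoxia lists it was below 0. Slopes were not compared between lists by a test. Cdh5 passed the threshold, with a slope of 0.63 ± 0.11 (SE, 8 litters; adjusted p = 0.020), while 11.4% of all genes passed. At an unadjusted p under 0.05, 11 members had rising slopes and 0 falling ones, against 9.74% and 17.8% of all genes. The 11 were Cdh5, Pecam1, Flt1, Flt4, Tie1, Egfl7, Robo4, Nos3, Cd34, S1pr1 and Aplnr, and the 10 besides Cdh5 had adjusted p-values from 0.052 to 0.151.

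Cdh5 was at 11.04, 10.90, 10.87 and 10.60 in IUGR litters and at 10.99, 10.62, 10.75 and 11.75 in sham litters. Its highest value was that of sham replicate 4. Over the 8 litters, Cdh5 correlated with the hormone mean at r = 0.86 (exact permutation p = 0.019) and rho = 0.67 (exact permutation p = 0.083). Both p-values are two-sided and unadjusted, with 30 members computed. Cdh5 was taken up because it passed the slope fit on the same litters, so they are no separate test. Of the 30, Pecam1 had the smallest permutation p for r (0.012, r = 0.81) and Aplnr for rho (0.015, rho = 0.83). Without sham replicate 4 and IUGR replicate 1, the litters farthest from the median hormone mean, r of Cdh5 was 0.06. It was 0.44 without sham replicate 4 alone. Leaving out the ends of the hormone range narrows it and lowers r by construction. Without IUGR replicate 1 alone the Cdh5 slope was 0.63 (adjusted p = 0.041).

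Without sham replicate 4 the Cdh5 slope was 0.55 ± 0.43 (SE), and 0 of the 30 members and 0 of all genes passed, with 0 members and 450 genes at an unadjusted p under 0.05 (limma). Without sham replicate 2, Cdh5 did not pass either (0.58, adjusted p = 0.052). It passed in the other 6 fits with 1 litter left out. Most slopes stayed upward where the call was lost, but with wide errors. Without sham replicate 4, 25 members were up and 5 down, with a median slope of 0.37 (43.6% of all genes up). The SEs of these slopes ran from 0.33 (Vegfb) to 1.13 (Plvap). The remaining sham litters had hormone means of only 10.32 to 10.42, against 10.64 to 11.17 in IUGR litters, so the slopes then rest mostly on the IUGR litters. Without IUGR replicate 4 and sham replicate 4, 22 were up and 8 down (44.8% of all genes up). The members moved together from litter to litter, so these counts are not independent. Of the 30 correlations with the hormone mean, which carry no group term, 26 were above 0 on all litters, 15 without sham replicate 4, and 8 without sham replicate 4 and IUGR replicate 1.

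No ligand passed the slope test on the hormone genes. Vegfa had a slope of 0.12 ± 0.16 (SE; adjusted p = 0.703) and a correlation of 0.28 with the hormone mean over 8 litters (exact permutation p = 0.521, rho = 0.14, exact permutation p = 0.752), which was -0.17 without the same 2 litters. The slope was -0.20 ± 0.12 for Vegfc, -0.14 ± 0.10 for Vegfb, -0.03 ± 0.18 for Angpt2 and 0.17 ± 0.16 for Angpt1 (SE). Some members that are not ligands also had slopes near 0, with 0.03 for Tek, -0.05 for Esam and 0.11 for Lyve1. Differences between slopes were not tested.

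**Figure D5:**
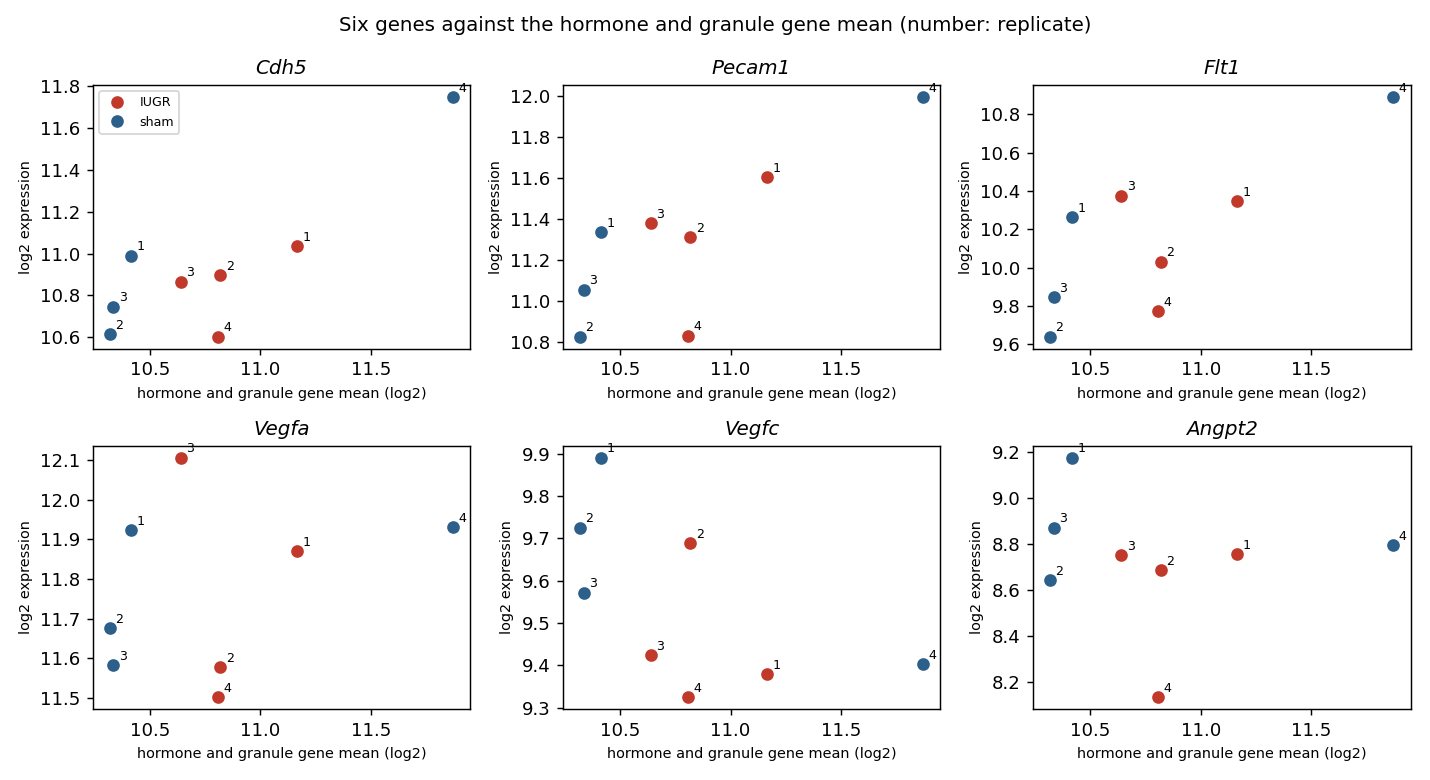
Log2 expression of 6 genes against the mean of the 20 hormone and granule genes, with IUGR litters in red, sham litters in blue and the replicate number beside each point. Sham replicate 4 lies alone at a hormone mean of 11.87, and the other 7 litters lie between 10.32 and 11.17.

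Set against the hormone genes in the same litter, the mean of the 25 members that are not ligands minus the hormone mean was -0.60, -0.26, -0.07 and -0.77 in IUGR litters, and 0.34, -0.03, 0.13 and -0.84 in sham litters. The groups overlapped through sham replicate 4. The zero of this scale has no meaning, since probe sets differ in brightness, and only the difference between litters can be read. IUGR minus sham was -0.32 on all litters. With 1 litter left out it ran from -0.57 (sham replicate 4) to -0.18 (sham replicate 1), and it was -0.21 without IUGR replicate 4.

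Genes of the same systems outside the members held no call between the groups. Of 55 other endothelial genes, 38 were lower and 17 higher, with a median of -0.10 and 0 past the threshold. Gja4, an arterial connexin gene, differed by -0.44 (adjusted p = 0.142) and Nr2f2, a venous transcription factor gene, by -0.43 (adjusted p = 0.220), and 8 of the 55 passed the slope test on the hormone mean, a test that 11.4% of all genes passed and that 0 genes passed without sham replicate 4 (450 at an unadjusted p under 0.05, limma). Of 16 other genes around VEGF and angiopoietin signalling, 11 were lower, with a median of -0.06 and 0 past the threshold; Angptl4, a secreted inhibitor of lipoprotein lipase, differed by 0.95 and Angptl2 by -0.59 (adjusted p = 0.162 and 0.241).

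Of 13 Notch genes used in arteries and sprouts, 7 were higher and 6 lower (median 0.00), Dll1 differing by 0.36 and Efnb2 by 0.38. Of 15 mural genes, 11 were lower (median -0.25), with the pericyte receptor gene Pdgfrb at -0.66 and the smooth muscle actin gene Acta2 at -0.26. Of 6 other lymphatic genes, 3 were lower and 3 higher (median 0.11), with Fxyd6 at -0.34 and Reln at 0.94. Of 7 genes of liver sinusoid endothelium, 4 were lower and 3 higher (median -0.28), with Fcgr2b at 0.59 and Mrc1 at -0.58. None of these genes passed the threshold.

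Marker lists of other cells on the arrays are given as counts and medians beside the median of 0.04 over all genes, and their part in the members' values was not tested. All 17 macrophage genes were lower (median -0.57, Lyz2 at -0.92, Spi1 at -0.82), as were all 12 erythroid genes (median -0.66, Hbb-b1 at -0.52, Ahsp at -0.65) and 17 of 19 mesenchyme genes (median -0.62, Sparc at -0.33, Thy1 at -0.79). All 19 liver genes (median 1.87, Itih1 at 1.92, Apoa1 at 1.77), all 20 acinar genes (median 1.06, Zg16 at 2.35, Sycn at 1.69) and 13 of 14 duct genes were higher (median 0.94, Krt8 at 1.07, Krt18 at 0.84). Of these only Krt8 passed the threshold (adjusted p = 0.043). Of 5 platelet genes, which share Pecam1 with endothelium, 4 were higher (median 0.06, Gp5 at 0.21, Gp1ba at 0.14), and of 20 hormone and granule genes 15 were higher (median 0.10, Chgb at 0.63, Ppy at -0.53).

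The arrays differed in their signal range, with an interquartile range of gene values of 3.54 to 3.62 in IUGR litters and 3.06 to 3.63 in sham litters, sham replicate 1 being the sham litter at 3.63. Array medians over genes were 8.76 to 8.85 in IUGR litters and 8.81, 8.48, 8.55 and 8.49 in sham replicates 1 to 4. Whether all 8 arrays were normalized together was not stated, so part of an IUGR minus sham difference may be one of scale, which was not tested beyond the scalings given here. When all genes were split into 10 classes of brightness, the members lay in classes 4 to 10, counted from the dimmest, whose median differences were from 0.05 to 0.22. The members' own median of -0.16 was -0.32 with quantile normalization (0.00 over all genes) and -0.39 with median centring (-0.19 over all genes).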

How the data were processed

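Each of the 8 litters was hybridised to 1 Affymetrix array with whole-transcript labelling, per the labels. The values the authors deposited are log2 signals from RMA (per the submitters' processing notes), with no software version stated. They covered 29214 probe sets, of which 15310 had exactly 1 gene in the platform annotation. Symbols were updated through RefSeq gene identifiers (GRCr8; 15279 matched), and the brightest probe set per gene was kept, giving 14506 genes.

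The values were tested across all genes in limma 3.58.1 (R 4.3.3; lmFit, eBayes, 2 groups), two-sided, with Benjamini-Hochberg adjustment over all genes. A second limma fit had group and the mean of 20 hormone and granule genes (8 hormones, 12 granule proteins). Scripts were checked on simulated data. Precision is set by the 4 arrays a group; each group had 4 dams, and p-values measure the spread between litters. All members were named, with litter values for ligands, receptors and the largest and smallest difference in each role (Cdh5 and Plvap were added after their values were seen); 2 genes of smallest p were named from each other list, and Hif1a and Epas1 for their role. Correlations used exact permutation over 40320 pairings. The members and gene lists were chosen with earlier results of these data known. Alternatives were array weights, a replicate block, quantile normalization, mean probe sets, leaving off the 30% dimmest genes, a trended robust prior, centring on the median, other hormone scores and leaving out litters. Figures were drawn with matplotlib 3.10.9.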

Additional observations from a re-analysis of the deposited data

Results flagged for a closer look

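In 64 sets of 4 litters (30 genes and 2 list means, in each group), 9 had 1 litter far from the other 3, the gap to its nearest neighbour taken as a share of the whole range and set against Dixon's critical value, which chance passes in about 1 of 20 sets. IUGR replicate 4 was low in 7 of them. The ratio was 0.893 for Kdr (10.75 against 11.22 to 11.28 in the other IUGR litters), 0.856 for Flt4 (8.65 against 8.98 to 9.04) and 0.915 for Tie1 (9.94 against 10.57 to 10.63). It was 0.889 for Angpt2 (8.13 against 8.69 to 8.76), 0.847 for Esam (10.75 against 11.44 to 11.57), 0.916 for Robo4 (7.92 against 8.34 to 8.38) and 0.978 for the mean of the members (9.98 against 10.45 to 10.46). Sham replicate 4 was high in the other 2, with 0.912 for Cd34 (12.58 against 11.82 to 11.89) and 0.937 for the hormone and granule gene mean (11.87 against 10.32 to 10.42). These genes share the same arrays and are not independent. The ratio was not taken for all genes, so the flags cannot show whether other genes set these litters apart as often.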

How the results depend on the processing

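No member was past the threshold between the groups in any fit but 1. With array weights, which weighted the litters from 0.196 (sham replicate 4) to 7.82 (sham replicate 3), 1 member passed (Nrp1, -0.29, adjusted p = 0.029), among 6358 of all genes, and the members' median was 0.06. The count of all genes (36) was 0 after quantile normalization (3305 at an unadjusted p under 0.05), 1 after median centring, 59 without the 30% dimmest genes and 9 without IUGR replicate 4 and sham replicate 4. With the replicate number as a block it was 0 (2715 unadjusted). Deviations of same-numbered litters from their group means correlated at -0.44 to 0.10. That cannot settle whether they were handled as pairs, and the labels name no pairing. With 1 litter left out the count of all genes ran from 0 (IUGR replicates 1 and 3, sham replicates 2 and 3) to 2738 (sham replicate 1). It was 2 without IUGR replicate 4 and 157 without sham replicate 4, and 2628 to 5350 genes passed unadjusted. In the slope fit, 9 members passed after quantile normalization, among 2073 of all genes, and 9 after median centring, among 1266. They were Cd34, Cdh5, Egfl7, Flt1, Flt4, Nos3, Pecam1, Robo4 and S1pr1 in both. Without the group term 0 members and 313 of all genes passed, with 9 members and 2655 genes at an unadjusted p under 0.05. With 1 litter left out, 0 to 3 members and 0 (sham replicate 4) to 1717 genes passed, 607 without sham replicate 2, 861 without sham replicate 3 and 875 without IUGR replicate 2. Without IUGR replicate 4 and sham replicate 4, 0 members and 0 genes passed (616 genes unadjusted). The causes were not tested. The litters number 4 a group, so differences as small as most of those given lie within their intervals.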
